A study of Mus musculus with 10 samples.

Results

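The genes described here encode the aryl hydrocarbon receptor (AHR) and the proteins that work most directly with it or against it, namely Ahr, Arnt, Arnt2, Ahrr and Tiparp. Their peaks were taken as every peak of the deposited AHR ChIP-seq lists that overlapped the gene body or 10 kb on either side. By this rule 16 of the 123652 wild type (WT) peaks and 1 of the 1931 AHR knockout (KO) peaks belonged to them. AHR ChIP-seq, which sequences DNA that is pulled down with an antibody against AHR, was performed on mouse colon organoids, epithelial cultures grown from intestinal stem cells. All cultures were kept in WENR medium, which contains Wnt3a and holds them in a regenerative state, and all were exposed for 1 hour to FICZ, a tryptophan-derived ligand of AHR, at 5 nM, so the data have no untreated group. The WT group had 4 ChIP and 4 input libraries and the AHR KO group 1 of each, input being sheared chromatin taken before the antibody step. In the study, AHR KO organoids come from mice in which Cre driven by the Villin promoter deletes a floxed Ahr in the intestinal epithelium. The KO labels do not give a number of cultures, while the methods describe biological replicates for both genotypes. The files hold peaks and no RNA or protein level, so neither the loss of AHR nor the colon identity of the cultures could be checked against marker genes.

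AHR is a basic helix-loop-helix PAS protein that is held in the cytoplasm by chaperones until it meets a ligand. The DNA-binding form is a pair of AHR and ARNT in the nucleus, and the core word it reads is GCGTG. ARNT2 is a close relative of ARNT that can take the same place in such pairs and is best known from the nervous system. AHR switches on its own restraints: AHRR, the AHR repressor, resembles AHR and competes for ARNT and for the same DNA, and TIPARP (also called PARP7) adds ADP-ribose to AHR and limits its activity. In the gut epithelium, AHR senses ligands from diet and microbes and switches on detoxifying enzymes such as CYP1A1.

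The highest score of these genes was at the feedback repressor Tiparp, which held a peak of 18.9 close to its start, rank 64 of the whole WT list. The other repressor gene, Ahrr, held a peak with a score of 10.97, rank 716, free of repeats in the 200 bp around its midpoint. Ahr itself had no peak, and Arnt had 1 peak with a score below the list's median. Arnt2 had 6 WT peaks, and the strongest, with a score of 11.6, was a CA repeat that was also the only place among these genes with a KO peak. The score is the fold enrichment that the authors' peak caller gave, the ChIP signal over its expected background, and the WT cultures share a single list. There is thus 1 value for each peak and no spread between cultures, and no test between genotypes was possible.

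The sequences of the peaks that carry these differences are shown first, on the plus strand of GRCm38. They are the highest-scoring peak of each gene with a peak, and any other peak with GCGTG in the 200 bp around its midpoint that was less than 50% repeat there. GCGTG on either strand is in capitals, so that CACGC marks a word on the minus strand, and each stretch was cut to at most 300 bp around the midpoint.
Tiparp intron 1, chr3:65529514-65529813: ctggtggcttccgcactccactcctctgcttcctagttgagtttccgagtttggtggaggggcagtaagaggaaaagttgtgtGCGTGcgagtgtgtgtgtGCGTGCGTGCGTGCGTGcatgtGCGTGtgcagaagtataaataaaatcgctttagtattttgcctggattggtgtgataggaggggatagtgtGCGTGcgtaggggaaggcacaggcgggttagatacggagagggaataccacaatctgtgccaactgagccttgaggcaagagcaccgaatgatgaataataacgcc
Ahrr intron 3, chr13:74259914-74260186: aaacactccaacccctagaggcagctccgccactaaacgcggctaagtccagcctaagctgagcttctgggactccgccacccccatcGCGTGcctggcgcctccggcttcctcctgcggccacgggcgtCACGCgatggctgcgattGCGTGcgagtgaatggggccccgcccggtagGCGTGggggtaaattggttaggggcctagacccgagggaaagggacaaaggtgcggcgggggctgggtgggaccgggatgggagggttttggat
Ahrr next to exon 4, chr13:74257285-74257471: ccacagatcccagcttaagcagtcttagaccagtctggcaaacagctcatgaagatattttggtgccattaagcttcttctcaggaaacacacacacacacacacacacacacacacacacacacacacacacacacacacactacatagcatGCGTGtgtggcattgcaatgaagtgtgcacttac
Arnt intron 4, chr3:95468935-95469143: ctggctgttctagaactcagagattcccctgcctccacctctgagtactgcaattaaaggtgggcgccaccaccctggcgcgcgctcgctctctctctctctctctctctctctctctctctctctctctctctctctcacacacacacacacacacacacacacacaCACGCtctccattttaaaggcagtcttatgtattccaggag
Arnt2 intron 2, chr7:84356474-84356654: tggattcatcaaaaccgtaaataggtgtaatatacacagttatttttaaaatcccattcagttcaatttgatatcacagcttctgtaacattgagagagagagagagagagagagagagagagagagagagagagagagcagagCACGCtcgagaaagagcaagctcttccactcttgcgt
Of the 7 Tiparp words, 4 run together in a GT-rich stretch in which neighbours share a G, and the other 3 stand clear of them, while the Ahrr intron 3 words stand apart in GC-rich sequence. The Arnt word closes a long CA run, and the second Ahrr word lies just past one. That Ahrr peak ran 16 bp into exon 4, which is left out of the printed stretch. The Arnt2 intron 2 word follows a run of GA.

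The highest-scoring Arnt2 peak is shown for contrast, with CACACA or TGTGTG in capitals.
Arnt2 intron 1, chr7:84389477-84389776: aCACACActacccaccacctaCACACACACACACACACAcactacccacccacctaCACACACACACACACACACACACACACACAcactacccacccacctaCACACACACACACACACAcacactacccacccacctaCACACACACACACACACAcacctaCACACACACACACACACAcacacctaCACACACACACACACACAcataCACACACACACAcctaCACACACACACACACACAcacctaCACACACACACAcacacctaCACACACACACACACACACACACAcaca
No GCGTG occurred in it, and nearly all of it is the same CA unit broken by short spacers.

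Each peak was described by its distance to the gene start, by the share of soft-masked bases, and by words in the 200 bp around its midpoint, called the window below. Soft-masked bases are those that the genome sequence marks as repeats, and windows in which CACACA or TGTGTG occurred at least 3 times without overlap are termed CA repeats. The longer AHR and ARNT word TNGCGTG, where N is any base, was counted beside the core GCGTG, and both were read on both strands. Shares over all WT windows, given beside those of these genes, describe 123366 windows on chromosomes 1 to 19, X and Y.

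Ahr had 0 WT and 0 KO peaks over its 37.1 kb gene body (chr12:35497974-35535038, minus strand, ENSMUSG00000019256.17) and flanks. Of all 21938 protein-coding genes, 78.3% had a WT peak by the same rule and 4.47% a KO peak. Among 3492 protein-coding genes whose region was within 20% of the length of the Ahr region, 86.3% had a WT peak, with a median of 2, and 13.7% had none. The nearest WT peak upstream began 29140 bp from the gene (chr12:35564178-35564385), with a score of 5.32 and 8 CA copies. The nearest downstream lay 30123 bp away (chr12:35467427-35467851), with a score of 4.82 in wholly masked sequence. Neither held GCGTG over its whole length. The Ahr region itself held 19 GCGTG words, 4 of them within TNGCGTG. Without a peak in the region, none of them could lie in one. Over the genome, 4.68% of GCGTG words and 2.69% of TNGCGTG words were inside a WT peak.

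Arnt, which encodes the DNA-binding partner of AHR (chr3:95434388-95497240, plus strand, ENSMUSG00000015522.18), had 1 WT peak and no KO peak. The peak lay in intron 4, 34651 bp past the start (chr3:95468935-95469143). Its score of 4.65 was higher than 27.3% of the WT list, and 90.3% of the 17178 protein-coding genes with a peak had a best score at least as high. Of 2142 genes of like region length, 93.1% had at least 1 peak, with a median of 3. The window was 71.5% masked, with 5 CA copies and a CA run of 33 bp, and its only GCGTG was the one at the end of that run. The other 46 of the 47 GCGTG words in the Arnt region, and all 8 TNGCGTG words, lay outside peaks. The genome shares inside a WT peak were also low, 4.68% for GCGTG and 2.69% for TNGCGTG.

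Arnt2 (chr7:84246278-84410176, minus strand, ENSMUSG00000015709.9) is the longest of these genes, and 73.0% of 842 genes of like region length had at least as many peaks as its 6. None of the 6 was near its start. A best score at least as high as that of Arnt2 was found for 2.32% of genes with a peak. The strongest peak (chr7:84389368-84389886) was 519 bp wide, lay 20549 bp past the start in intron 1, and ranked 527 in the WT list. Its window was 100% masked with 22 CA copies and no CpG. The KO peak (chr7:84389466-84389804) lay wholly within it and was 339 bp wide with 23 CA copies. Its score of 5.00 was higher than 5.13% of the KO list, rank 1818 of 1931. Scores of single peaks were not compared between the lists because they depend on depth. Among all WT peaks 1.51% overlapped a KO peak, and among these 16 it was this 1.

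The remaining Arnt2 peaks scored from 4.65 to 5.98. Intron 1 held 3 of them. The first, at 32913 bp from the start (chr7:84377138-84377387), scored 5.98 and was 72.0% masked with 8 CA copies. Another at 42438 bp (chr7:84367644-84367832) had the same score, was 40.5% masked and had 10 CA copies and 1 ACGTG, a related core. It overlapped by 15 bp the untranslated first exon of a shorter coding transcript, whose start was 173 bp from the peak midpoint. The last intron 1 peak, at 44346 bp (chr7:84365736-84365923), scored 4.98 and was 71.5% masked with 5 CA copies.

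These 3 peaks were thus all CA repeats without GCGTG. The intron 2 peak at 53612 bp (chr7:84356474-84356654) was the exception, with no CA copy. It scored 5.32, was 43.5% masked, and held the only GCGTG of the 63 in the Arnt2 region that lay in a peak. None of the 14 TNGCGTG words of that region did, and the genome shares inside a WT peak were 4.68% for GCGTG and 2.69% for TNGCGTG. The last peak (chr7:84236887-84237146) was beyond the gene, 9132 bp past its end, with a score of 4.65, 94.5% masking and 4 CA copies.

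**Figure D1:**
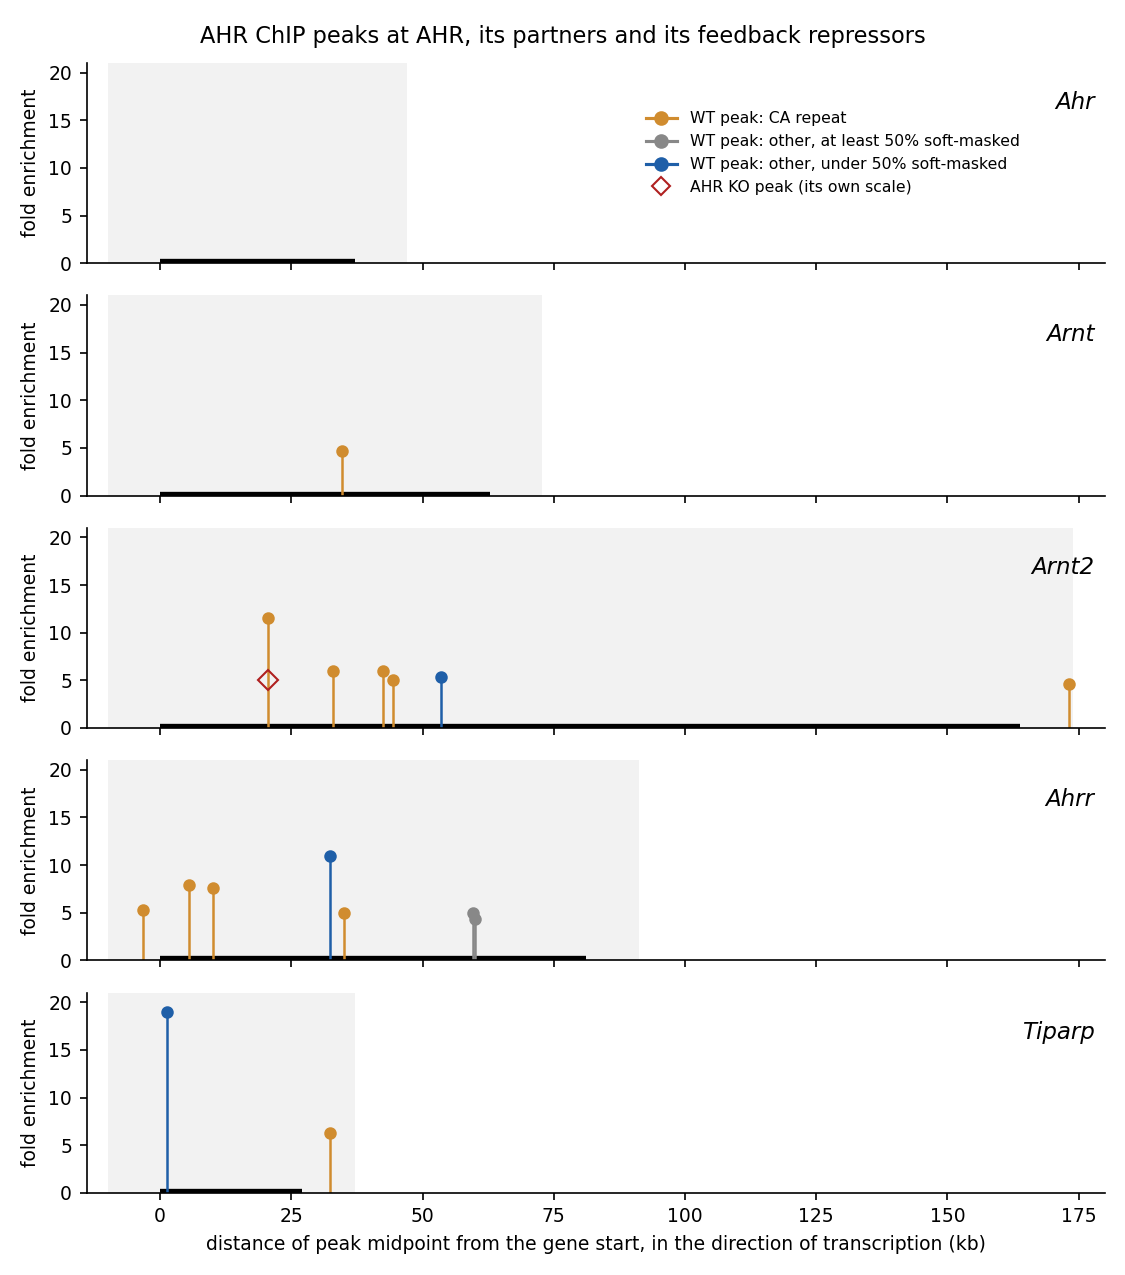
Every peak at the 5 genes. The x axis gives the distance of the peak midpoint from the gene start in kb, in the direction of transcription, and the y axis the authors' fold enrichment. Black bars are gene bodies and grey areas the regions searched. Stems are WT peaks coloured by repeat class, and the diamond is the KO peak, whose score is on the scale of its own list. Ahr is empty, the tallest stem is 1254 bp from the Tiparp start, and the blue Ahrr stem is the only peak under 25% masked.

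Ahrr (chr13:74211118-74292331, minus strand, ENSMUSG00000021575.16), which encodes the repressor that competes with AHR, had 7 WT peaks and no KO peak. The nearest KO peak was 236199 bp away. Of 1715 genes of like region length, 20.99% had at least as many WT peaks, and the median was 4. A best score at least as high as that of Ahrr was found for 3.29% of genes with a peak, taken over all region lengths.

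That best peak (chr13:74259914-74260186) was 273 bp wide and lay in intron 3, 32281 bp past the gene start and 622 bp from the start of a non-coding Ahrr transcript. Its score was higher than 99.4% of the WT list and, on the step that 1 fragment adds to a score, corresponded to 32 fragments. The window was 0% masked, 67.5% GC and had 20 CpG, while 0.451% of all WT windows were under 25% masked and 0.134% had as many CpG. It held 4 GCGTG words, and 3 of them were part of TNGCGTG, a number reached in 0.00486% of WT windows. In distance from the midpoint, these 3 lay at -46, -4 and 14 bp and the bare core at 45 bp, with the one at -4 bp on the minus strand. The whole Ahrr region had 9 TNGCGTG words, so 6 lay outside peaks. Over the genome 2.69% of TNGCGTG words were inside a WT peak.

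The other 6 Ahrr peaks scored lower, from 4.32 to 7.89. Upstream of the gene, 3331 bp before its start (chr13:74295566-74295757), a peak scored 5.32 and was 41.0% masked with 9 CA copies. Intron 1 held a peak at 5454 bp (chr13:74286713-74287040) with a score of 7.89, 100% masking, 17 CA copies and 1 GCGTG within the masked bases. Intron 2 held one at 9982 bp (chr13:74282222-74282476) with a score of 7.64, 55.0% masking and 7 CA copies.

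Both were in the upper 10% of the WT list and lay in CA repeats. The peak that reached into exon 4 (chr13:74257285-74257487) was 34945 bp past the start, with a score of 4.98, 36.5% masking, 10 CA copies and 1 GCGTG outside the masked bases. Its midpoint was 159 bp from the start of an Ahrr transcript that retains an intron. The 16 bp of exon are coding in one Ahrr transcript and untranslated in another. A close pair in intron 4 ended the series, in wholly masked sequence with neither CA copies nor GCGTG. Their scores were 4.98 at 59657 bp (chr13:74232584-74232764) and 4.32 at 60026 bp (chr13:74232135-74232475), the lowest of all 16.

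Tiparp (chr3:65528410-65555518, plus strand, ENSMUSG00000034640.9), which encodes the ADP-ribosyltransferase that restrains AHR, had 2 WT peaks and no KO peak, the nearest KO peak being 2237823 bp away. Of 4327 genes of like region length, 57.6% had at least as many peaks, with a median of 2. A best score at least as high was found for 61 genes, Tiparp included, or 0.355% of those with a peak. The strong peak (chr3:65529461-65529867) was 407 bp wide and lay in intron 1, 1254 bp past the start, with a score that corresponded to 56 fragments. Its window was 26.0% masked with 12 CpG, and 2 CA copies, too few for a CA repeat.

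All 7 GCGTG words in that window were on the plus strand, from -65 to 46 bp of the midpoint. Soft-masked bases held 6 of them and 1 lay outside. None was part of TNGCGTG, and 0.572% of WT windows had as many GCGTG. Of the 7, 4 masked words overlap their neighbours by a base and are not separate observations. The second peak (chr3:65560586-65560821) was 5068 bp past the end of the gene, with a score of 6.31, 32.5% masking and 8 CA copies. Its 1 GCGTG lay 112 bp from the midpoint, outside the window. Together the 2 peaks held 8 of the 30 GCGTG words in the Tiparp region, compared with 4.68% of GCGTG words over the genome, and neither of its 2 TNGCGTG words.

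Whether the KO list could have shown these peaks depends on how a WT signal is carried over to its lower background. Among KO peaks whose scores gave a fragment number, the lowest was 5 and the median 8. At the same fold enrichment as in WT, the Tiparp peak would have 23.4 fragments over the KO background and the best Ahrr peak 13.1. By that scaling, 13 of the 16 peaks would have at least the lowest number and 5 at least the median. With signal reduced in proportion to background, the values were 8.00 for Tiparp and 4.57 for Ahrr, and 1 of the 14 peaks with a fragment number reached the lowest. The KO background was read from 17.3% of the KO peaks.

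**Figure D2:**
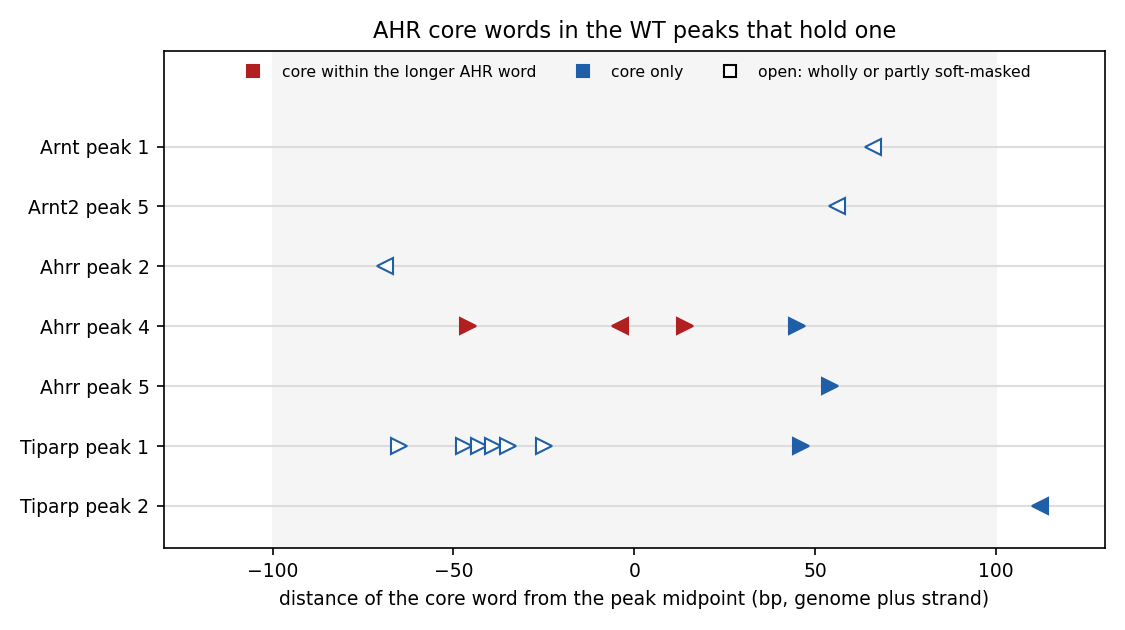
GCGTG cores in the 7 WT peaks that hold one, numbered from the 5′ end of each gene. The x axis is the distance from the peak midpoint in bp on the plus strand, arrowheads point along the strand of the word, and the shaded band is the 200 bp window. Red marks cores within TNGCGTG, and open symbols mark wholly or partly soft-masked words. Ahrr peak 4 is the only row with red symbols, and Tiparp peak 1 has 6 open symbols and 1 filled one.

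Seen over all 16 WT peaks, scores ran from 4.32 to 18.9. Their median of 5.65 (95% interval from order statistics 4.98 to 7.89) was close to the 5.32 of the whole list. The interval treats the 16 peaks as independent, although 7 are at Ahrr and 6 at Arnt2, so it describes these loci and is no test. Above the list's median were 8 peaks, and 2 more equalled it. A score of at least 10 was reached by 3, the best peaks of Tiparp, Arnt2 and Ahrr, and by 1.06% of the list. The median width was 243 bp against 228 bp.

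**Figure D3:**
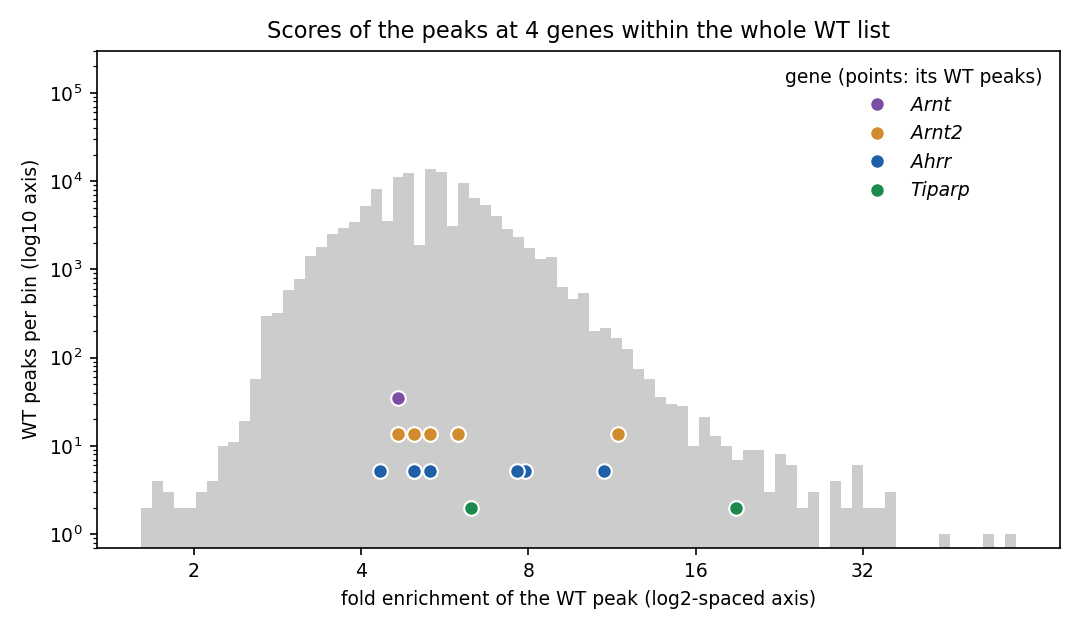
Scores of the WT peaks at the 4 genes with a peak (points, 1 row per gene, height without meaning) over the distribution of all 123652 WT peaks (grey bars, peaks per bin). The x axis is fold enrichment on a log2-spaced axis and the y axis is a log10 count. Most points lie in the body of the distribution, and the best peaks of Tiparp (18.9), Arnt2 (11.6) and Ahrr (10.97) lie in its right tail.

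Placed on the longest coding transcript of each gene, 12 of the 16 peaks lay within introns, 1 reached into an exon, 1 was upstream and 2 were downstream. Over all 68502 pairs of a WT peak and a protein-coding gene by the same rule, the shares were 63.8% within introns, 1.7% at exons, 16.8% upstream and 15.1% downstream. With all transcripts counted, 2 peaks reached into an exon, the one at exon 4 of Ahrr and the Arnt2 peak that overlapped the first exon of a shorter transcript. None had its midpoint within 1 kb of the start of its gene, a place where 1.16% of all WT peaks lay for one protein-coding gene or another. Promoter sequences from RefSeq (GRCm38, 250 bp before to 50 bp after the start) were found for Arnt, Arnt2, Ahrr and Tiparp. The Ahrr promoter had 3 GCGTG, 1 of them in TNGCGTG, and Arnt and Tiparp had 1 GCGTG each. No WT peak touched any of these promoters, and 32.4% of 32851 RefSeq promoters held GCGTG.

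Repeat content ran from 0% to 100% of the window, with a median of 63.25% masked against 86.5% for the list, while the median GC content was 49% against 46%. Of the 16, 9 (56.25%, 95% Wilson interval 33.2 to 76.9) were at least 50% masked, against 86.1% of all WT windows, and 11 (68.75%, 44.4 to 85.8) were CA repeats, against 57.3%. GCGTG was in 6 windows (37.5%, 18.5 to 61.4), against 17.7%, and TNGCGTG in 1 (6.25%, 1.11 to 28.3), against 2.84%. The list's share lay inside the interval for CA repeats and for TNGCGTG, and outside it for masked sequence and GCGTG. These intervals cover counting error only, and peaks of 1 gene are not replicates, so the counts describe these loci. More than 1 GCGTG occurred in 2 windows, the best ones of Tiparp and Ahrr.

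**Figure D4:**
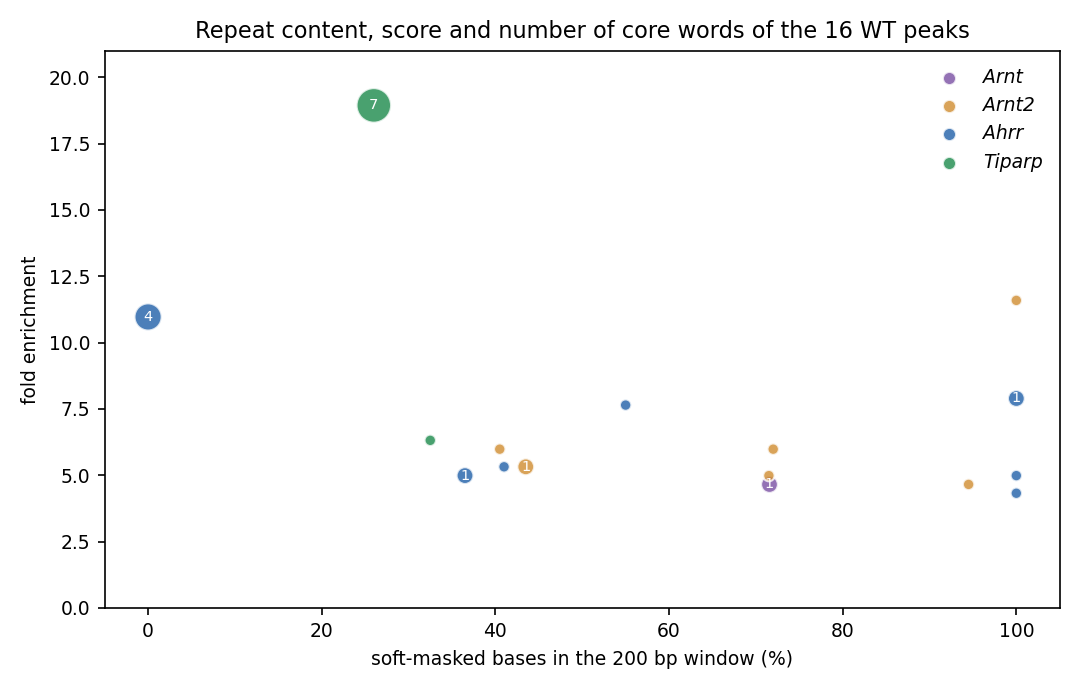
Soft-masked share of the 200 bp window in percent (x axis) and fold enrichment (y axis) of the 16 WT peaks, coloured by gene. Point size and the number inside give the GCGTG words in the window, and points without a number have none. The peaks with 7 and 4 words, of Tiparp and Ahrr, stand at 26.0% and 0% masked, and the Arnt2 peak of nearly the same score as the Ahrr one stands at 100%.

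Words of other factors were rare. The AP-1 word (TGACTCA or TGAGTCA) was in 0 of 16 windows, which allows a share of up to 18.75%, and in 1.28% of all WT windows. The TEAD word GGAATG was in 1, in intron 2 of Ahrr, against 7.24%. ACGTG was in 1 against 6.37%. CACGTG, the E-box of other helix-loop-helix proteins, was in 0 of 16, which again allows up to 18.75%, against 2.25%.

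Other genes of the pathway were read by the same rule. Of the 16 chaperones, coregulators and enzymes reported here, all were matched and 13 had a WT peak, near the 78.3% of all protein-coding genes. Best scores ran from 5.65 to 17.97 with a median of 7.31, against 6.31 over all genes with a peak. All 6 coregulators had one, as did 2 of 3 chaperones and 5 of 7 enzymes, while Hsp90ab1, Cyp1a2 and Aldh3a1 had none. A KO peak was near 2 of these 16, the overlapping Ugt1a6a and Ugt1a6b, against 4.47% of all protein-coding genes. The best peak held TNGCGTG at 2 of them, Cyp1a1 and Cyp1b1, and at 2.57% of all protein-coding genes with a peak. It held GCGTG at 4 of the 13 genes and was a CA repeat at 6, beside 17.7% and 57.3% of all WT windows. Those shares are over single windows and not over best peaks, and Ugt1a6a and Ugt1a6b have the same best peak. Like that of Ahrr, the best peaks of the detoxifying enzymes Cyp1a1 (17.97, 0% masked, 3 GCGTG and 2 TNGCGTG) and Cyp1b1 (10.8, 2% masked, 3 and 2) were almost free of repeats. The other enzymes with a peak differed from these: the best Nqo1 peak was 100% masked with 14 CA copies, that of Ugt1a6a and Ugt1a6b was 98.5% masked, and neither held GCGTG.

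The genes most like each of the 4 with a peak were taken over all 17178 protein-coding genes with a peak. Likeness was the distance in 4 measures of the best peak and gene, in SD units (score, masked share, GCGTG number and peaks per kb). Nearest to Ahrr were Myo16, Maff and Lamc1, at distances of 0.910, 0.919 and 1.196. Nearest to Tiparp were Mpp6, Rnf43 and Cdkn1a, at 0.782, 1.49 and 1.68, with best scores of 16.7, 22.3 and 23.0 and 7, 7 and 6 GCGTG. Arnt and Arnt2 had closer matches. For Arnt these were Gprasp1 (0.295), Ndst1 (0.319) and Usp33 (0.454), and for Arnt2 Lrp2 (0.144), Hspd1 (0.160) and Cmtm3 (0.166), whose best peaks were wholly masked like its own.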

How the data were processed

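AHR ChIP-seq libraries of 4 WT and 1 AHR KO colon organoid samples, with their inputs, were processed by the authors. Per the submitters' notes and the study's methods, single-end reads were aligned to mm10 (the GRCm38 assembly) with BWA 0.7.15, duplicates were marked with Picard 2.1.1, and peaks were called against input with MACS2 2.1.1 and annotated with HOMER 4.8. The deposited values used were 2 peak lists, whose score is a ratio, the fold enrichment of ChIP over background, used as given. Whether WT reads were pooled or lists merged, on which the meaning of a fragment number depends, and how reads mapping to several places were treated, is not given in the sources used here. The methods say that ChIP samples were each set against their own input and that lists were intersected, without saying how the single WT list arose. The files give no depth for a library, and the methods give only an average number of reads per sample. In the WT list 63820 scores were whole multiples of 0.332 (tolerance 0.0003), the value of 1 fragment where the background is 2.01, and these peaks had a median of 16 fragments. In the KO list 334 scores lay on steps of 0.777, a background of 0.287, so scores of single peaks were not compared between the lists, and the KO median score served only as a filter in one alternative.

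Starts were taken as counted from 1, since 9 peaks at sequence edges start at 1 and none at 0, and a shift of 1 bp is possible. Overlaps of 1 bp counted. GENCODE M21, the GRCm38 sequence and RefSeq promoters were used with Python 3.11.15, pandas 2.3.3, scipy 1.17.1 and matplotlib 3.10.9. Words were counted in 123366 WT windows, leaving out 286 peaks on other sequences. Overlap and word counting were tested on simulated data. The 5 genes, the pathway list and the alternatives were chosen with earlier results of these data known. One gene of the pathway list is not reported here, and the counts are over the other 16. Sequences were printed for the best peak of each gene and for other peaks whose window was under 50% masked and held GCGTG. The 3 most alike genes per member were named by a fixed distance. No test was run, as each genotype has 1 list. Shares carry 95% Wilson intervals and a count of 0 the limit of 3 counts.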

Additional observations from a re-analysis of the deposited data

How the results depend on the processing

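Of 36 values recomputed under alternatives, 24 kept within the limits set and 12 moved. The 16 WT peaks became 35 with a flank of 50 kb, and 5 when only scores at or above the KO list's median, or only the top 10% of scores, were kept. With a flank of 50 kb, Ahr had 4 peaks, Arnt 8 and Tiparp 5, and without a flank Tiparp had 1. The share of repeat windows was 31.25% at a limit of 75% masking and 93.75% at 25%. The share of protein-coding genes with a WT peak, 78.3%, was 68.7% over all GENCODE genes and 49.7% without a flank. Counting starts from 0, an alternative chosen after seeing the data, left the 4 shares it was applied to as they were. No paired analysis was possible because each genotype has a single list without values for separate cultures, and for the same reason no culture could be left out. What the KO list could show depends on the scaling to its depth: at equal fold enrichment 13 of the 16 peaks reached the lowest KO fragment number, and in proportion to background 1 of 14 did. Both scalings were chosen after seeing the data.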

Other observations

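A search of all WT windows for as many TNGCGTG words as the best Ahrr window holds, made after the values were seen, found 6 windows, of which 4 were at least 75% soft-masked. The other 2 were the Ahrr intron 3 window and one on chromosome 3 (chr3:65659258-65659663, GRCm38). The latter had a score of 13.5, rank 218 of the WT list, with 10.5% masking, 25 CpG, 4 GCGTG and 3 of them in TNGCGTG, and it overlapped no KO peak. It began 103.7 kb past the end of Tiparp, beyond the searched region, and its midpoint was 131.1 kb from the Tiparp start. The nearest protein-coding start was that of Lekr1, at 6767 bp. Which gene, if any, the site acts on was not tested.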
